A study of Mus musculus with 48 samples.

Results

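Mitotic G2/M genes are the genes that a dividing cell switches on between DNA replication and the end of cell division. A set of 51 such genes was followed through splenic regulatory T cells (Tregs) and conventional CD4 T cells (Tcons) of mice given wild-type IL-2 or either of 2 weakened IL-2 molecules. The genes were listed by name for their known part in the mitotic machinery, and the rule that lists them uses no threshold on measured values. All 51 were found among the 53345 genes of the deposited matrices, and all 51 passed the filter on low values, CPM (expected counts relative to the library's total) above 0.5 in at least 4 libraries, in each fit.

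The mice were undiseased female C57BL/6 animals aged 8 to 12 weeks. Each was injected subcutaneously with PBS or with 25 µg of Fc-fused human IL-2, in its wild-type form (WT IL-2), as the single-substitution mutein H16R or as the mutein called 3x, which carries 3 substitutions. All mice also received 2 intraperitoneal doses of 500 µg of antibody, either an isotype control or one blocking MHC class II, through which CD4 T cells see antigen. Spleens were taken on day 4. Tregs were the cells bound in the CD25 selection of a Treg kit, with 4 libraries in each of the 8 groups, and Tcons were the flow-through of the same selection, with 2 libraries in each group. Both fractions were enriched cells rather than pure populations, and for 16 mice Tregs and Tcons came from the same spleen. In the labels 2 Treg libraries of the isotype WT IL-2 group share a mouse number. They are named replicates 3a and 3b and were taken to be different mice.

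The label of the Treg libraries was checked against the markers of the lineage. Foxp3, the transcription factor that defines Tregs, was at 692 to 1179 CPM in the Treg libraries and at 48.3 to 186 CPM in the Tcon libraries. Il2ra, which encodes CD25, was at 309 to 913 CPM in Tregs and at 18.1 to 75.0 CPM in Tcons. Total expected counts were 18.3 to 51.2 M in the Treg libraries and 31.3 to 52.0 M in the Tcon libraries. They were lowest in the isotype PBS Tregs, where the median was 22.4 M and the range 18.3 to 34.6 M. The Treg libraries also held RNA of other cells: summed over a list of plasma cell genes they had 173 to 3447 CPM, over B cell genes 34.3 to 735 CPM, over CD8 T and NK cell genes 24.2 to 250 CPM and over myeloid cell genes 13.7 to 515 CPM. Replicate 1 of the Tregs given WT IL-2 with MHC II blocking stood apart, with 515 CPM of myeloid genes against 25.7 to 57.3 CPM in the other 3 libraries of its group, 675 CPM of B cell genes against 102 to 144 CPM and 149 CPM of granulocyte precursor genes against 4.04 to 25.3 CPM. Replicate 1 of the isotype PBS Tregs, a reference library for the isotype comparisons, also stood apart. It had 735 CPM of B cell genes against 143 to 182 CPM and 93.9 CPM of myeloid genes against 16.9 to 28.6 CPM. Its granulocyte precursor genes were at 28.0 CPM against 2.98 to 10.0 CPM.

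Entry into mitosis is driven by the kinase Cdk1 with its B-type cyclins. The mitotic kinases Plk1, Aurka and Aurkb then organise the spindle, kinetochores attach chromosomes to it, the checkpoint holds back the anaphase-promoting complex until all chromosomes are attached, and cytokinesis separates the daughter cells. Most of these genes are transcribed only late in the cell cycle, under the DREAM and B-Myb-MuvB complexes and Foxm1, which act through a promoter element called the CHR (cell cycle genes homology region) and through CCAAT boxes bound by NF-Y. In T cells IL-2 is a growth factor, and the level of these transcripts in a population rises with the share of cells that are dividing. In bulk RNA, a larger share of dividing cells and more of each transcript per cell cannot be told apart.

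Promoters are shown because most of these genes moved together. RefSeq windows (GRCm38.p6), each running from 250 bases before the start to 50 after it, were matched by symbol for 42 of the 51 genes. The CHR letters TTTGAA, read on either strand, or the variant TTCGAA, were in 32 of the 42 windows (76.2%) and in 5254 of 27025 windows of all genes (19.4%). CCAAT, read on either strand, was present at least once in 30 windows (71.4%, against 37.9% of all genes) and at least 2 times in 21 (50%, against 12.2%). Both kinds of motif stood together in 27 windows (64.3%), against 7.7% of all genes, 26 of 61 windows (42.6%) of a list of other mitotic genes and 5 of 39 windows (12.8%) of a list of S phase genes. The CHR letters were in 36 of the 61 (59.0%) and 6 of the 39 (15.4%), and CCAAT in 38 (62.3%) and 24 (61.5%). Neither was found in 7 windows (16.7%, against 50.3%), those of Birc5, Mad2l1, Melk, Ncaph, Nuf2, Nusap1 and Pttg1. The RefSeq start lay within 50 bases of the start of the GENCODE gene for 33 of the 42, and a window around another start can miss a motif.

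The stretches around the start follow for 6 of these RefSeq windows, 150 bases each, from 120 bases before it to 30 bases from it on, with the motifs in capitals. Ccnb2, Cdk1, Ube2c and Cenpa were chosen as windows that hold both the CHR letters and CCAAT, Kif20b as a gene with the CHR letters that was not called with WT IL-2 or H16R in the isotype arm, and Birc5 as a strongly moving gene in whose window neither was found.
Ccnb2, chr9:70421525-70421674, minus strand: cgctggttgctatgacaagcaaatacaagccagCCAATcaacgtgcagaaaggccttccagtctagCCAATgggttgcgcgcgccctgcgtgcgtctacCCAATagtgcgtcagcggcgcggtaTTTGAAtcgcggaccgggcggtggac
Cdk1, chr10:69352883-69353032, minus strand: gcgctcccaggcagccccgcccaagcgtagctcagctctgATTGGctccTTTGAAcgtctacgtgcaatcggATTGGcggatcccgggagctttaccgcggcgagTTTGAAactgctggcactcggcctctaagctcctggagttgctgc
Ube2c, chr2:164769809-164769958, plus strand: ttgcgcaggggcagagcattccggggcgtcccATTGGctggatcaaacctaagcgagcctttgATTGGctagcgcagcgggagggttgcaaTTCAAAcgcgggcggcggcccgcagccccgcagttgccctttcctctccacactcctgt
Cenpa, chr5:30666766-30666915, plus strand: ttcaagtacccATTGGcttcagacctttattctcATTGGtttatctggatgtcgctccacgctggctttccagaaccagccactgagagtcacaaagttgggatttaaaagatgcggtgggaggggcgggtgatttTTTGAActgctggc
Kif20b, chr19:34922238-34922387, plus strand: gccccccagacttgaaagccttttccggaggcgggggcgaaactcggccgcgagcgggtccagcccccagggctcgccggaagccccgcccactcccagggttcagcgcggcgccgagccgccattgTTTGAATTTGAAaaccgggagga
Birc5, chr11:117849117-117849266, plus strand: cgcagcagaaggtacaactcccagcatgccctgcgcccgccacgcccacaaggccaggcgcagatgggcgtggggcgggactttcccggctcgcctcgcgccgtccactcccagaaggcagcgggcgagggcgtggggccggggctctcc

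Mitotic transcripts were present in Tregs of mice given PBS and were higher after each IL-2 molecule. As a summary of level, the geometric mean CPM of the 51 genes was 19.7, 16.1, 16.7 and 16.4 in the isotype PBS Tregs. It was 28.4, 18.8, 23.3 and 23.9 with WT IL-2, 26.4, 25.1, 24.2 and 19.7 with H16R, and 41.8, 28.2, 30.4 and 35.2 with 3x. The lowest WT IL-2 library lay below the highest PBS library. The 4 libraries given 3x lay above all PBS and H16R libraries, and the lowest of them was just under the highest WT IL-2 library. With MHC II blocking the values were 19.5, 18.6, 17.9 and 18.8 for PBS and 23.9, 20.7, 20.9 and 24.0 for WT IL-2. They were 32.7, 30.5, 35.8 and 31.5 for H16R, and 49.7, 41.2, 49.6 and 56.6 for 3x, so that in this arm the 4 groups did not overlap. The group means relative to isotype PBS were 1.37 (WT IL-2), 1.39 (H16R) and 1.97 (3x), and with MHC II blocking 1.09 for PBS and 1.30, 1.90 and 2.86 for the same molecules. The geometric mean was not a planned measure. By the planned one, the summed CPM, the folds were smaller, at 1.24, 1.34 and 1.68. With blocking they were 1.08 for PBS and 1.21, 1.51 and 2.04 for the molecules.

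Transcripts of other cells differed between the same groups. In isotype Tregs the summed plasma cell genes were at 1667 to 2006 CPM with PBS, 757 to 905 CPM with WT IL-2, 279 to 542 CPM with H16R and 173 to 263 CPM with 3x, without overlap. B cell genes were at 143 to 735, 63.6 to 108, 35.0 to 47.9 and 34.3 to 45.7 CPM in the same order. With blocking, plasma cell genes were at 732 to 2110 CPM with PBS, 1710 to 3447 CPM with WT IL-2, 664 to 1372 CPM with H16R and 718 to 1538 CPM with 3x. CD8 T and NK cell genes in the blocked arm were at 38.0 to 46.0 CPM with PBS and higher with each molecule, at 90.9 to 178 CPM with WT IL-2, 87.7 to 141 CPM with H16R and 131 to 250 CPM with 3x. The part of these cells in the mitotic levels was not tested.

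**Figure D1:**
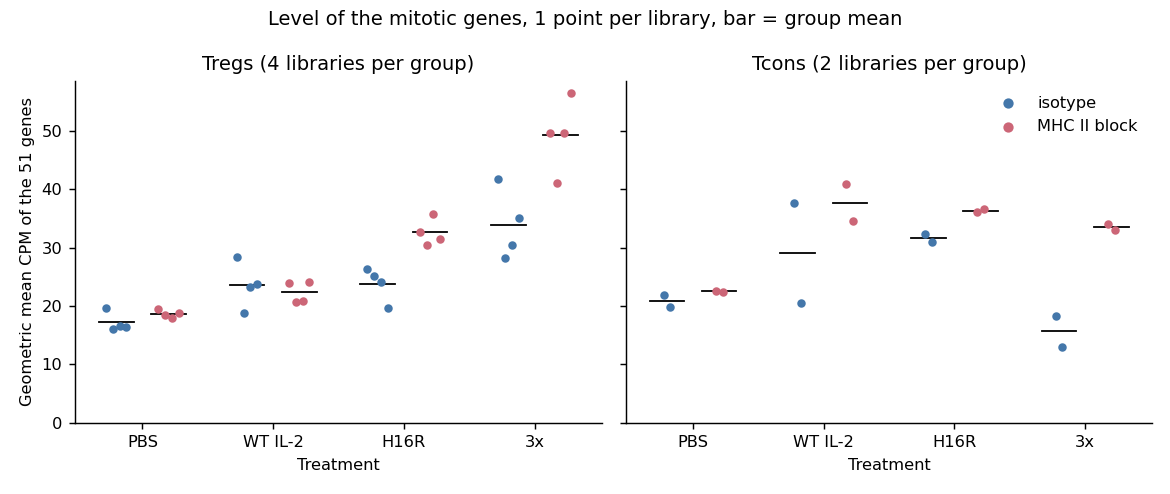
Geometric mean CPM of the 51 mitotic genes in each library, with Tregs (4 libraries per group) and Tcons (2 per group) in separate panels and the group mean as a bar. Tregs given 3x with MHC II blocking reach 41.2 to 56.6 CPM against 16.1 to 19.7 CPM in isotype PBS Tregs, while isotype 3x Tcons, at 18.4 and 13.0 CPM, lie below the other Tcon groups.

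Each IL-2 molecule was then set against PBS in Tregs of isotype-treated mice, gene by gene, with edgeR's quasi-likelihood test and a Benjamini-Hochberg adjusted p under 0.1 over 12392 genes. The same test was used for the Treg against Tcon fits, over 12844 genes, and for the Tcon fits, over 12526. WT IL-2 raised 43 of the 51 genes and lowered none, with a median log2 fold change of 0.48. Of all genes tested, 26.0% rose and 26.2% fell. H16R raised 45 and lowered none, with a median of 0.53 (all genes, 31.4% up and 32.8% down). The 3x mutein raised 50 and lowered none, with a median of 1.06, a fold of 2.09 (all genes, 31.3% up and 32.3% down). These 3 comparisons share the PBS libraries.

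By role, the switch genes around Cdk1, the kinetochore genes and the cytokinesis genes all rose with WT IL-2, 8 of 8, 6 of 6 and 6 of 6. The checkpoint and anaphase-promoting complex group was the exception, with 3 of 7 genes raised by WT IL-2 and 3 of 7 by H16R. The checkpoint genes Bub1b, Mad2l1 and Cdc20 were among the genes not called with either molecule, as was Pttg1. With 3x all but Pttg1 were called. Aurka and Smc4 were called with H16R and not with WT IL-2, and the difference between those molecules is given further on.

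Ube2c, the E2 enzyme of the anaphase-promoting complex, had 21.6, 14.9, 16.4 and 14.1 CPM in isotype PBS Tregs. It had 32.7, 17.7, 25.6 and 23.5 CPM with WT IL-2, 31.7, 29.1, 31.0 and 20.4 CPM with H16R and 57.7, 36.3, 40.1 and 46.1 CPM with 3x. All 4 libraries given 3x were above every PBS library, while 1 WT IL-2 library and 1 H16R library lay within the PBS range. The log2 fold change of Ube2c was 0.59 (SE 0.18, adjusted p = 0.00874) with WT IL-2, 0.79 (SE 0.18, adjusted p = 0.000409) with H16R and 1.47 (SE 0.18, adjusted p = 6.96e-08) with 3x. Birc5, survivin of the chromosomal passenger complex, went from 10.7 to 16.1 CPM with PBS to 25.4 to 48.1 CPM with 3x, a log2 fold change of 1.49 (SE 0.17, adjusted p = 2.82e-08). Ube2c, Prc1, Ccna2, Cdc25c, Cdca8, Cdc20, Kif4, Nusap1, Kif20a and Ncapg overlap a protein-coding gene on the opposite strand, and whether the counting used strand is not given in the sources used here.

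Prc1, which bundles the microtubules of the central spindle at cytokinesis, was the gene most raised by WT IL-2 and by H16R. Its level was 19.8, 15.4, 15.3 and 14.5 CPM with PBS, 38.5, 22.5, 30.6 and 31.1 CPM with WT IL-2 and 35.3, 32.9, 35.5 and 26.9 CPM with H16R, without overlap. The log2 fold changes of Prc1 were 0.94 (SE 0.14, adjusted p = 3.23e-06) and 1.06 (SE 0.14, adjusted p = 2.05e-07). Cenpa, the histone H3 variant that marks centromeres, was also wholly above PBS with each molecule. Cenpa had 33.5, 27.9, 29.6 and 24.7 CPM with PBS, 54.7, 45.1, 51.9 and 48.6 CPM with WT IL-2, 56.5, 53.3, 54.7 and 49.8 CPM with H16R and 67.9, 55, 60.0 and 58.6 CPM with 3x. Its log2 fold changes were 0.81, 0.95 and 1.11, each with an SE of 0.08 or 0.09.

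Cenpf, a kinetochore protein made in G2, had the largest change with 3x, a log2 fold change of 1.62 (SE 0.16, adjusted p = 2.42e-09). The motor Kif11, which pushes the spindle poles apart, was at 28.4 to 39.5 CPM with PBS and at 61.8 to 95.0 CPM with 3x (log2 fold change 1.15, SE 0.13, adjusted p = 1.24e-08). Top2a, the topoisomerase that untangles sister chromatids, was at 96.1 to 118 CPM with PBS and at 173 to 272 CPM with 3x (log2 fold change 1.10, SE 0.12, adjusted p = 6.67e-09). Mki67, the Ki-67 antigen that coats mitotic chromosomes and was picked for the text after its values were seen, was at 134 to 164 CPM with PBS and at 323 to 495 CPM with 3x (log2 fold change 1.47, SE 0.14, adjusted p = 7.85e-10). None of these 3 genes overlapped between PBS and 3x. Over the whole set, 48 of the 51 genes were wholly above PBS with 3x, 20 with H16R and 16 with WT IL-2, where 18.4%, 18.2% and 14.5% of all genes were.

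The same comparisons were made in mice given the MHC II blocking antibody. WT IL-2 raised 25 genes and lowered none, with a median log2 fold change of 0.30 (all genes, 21.9% up and 13.7% down); without replicate 4 of the WT IL-2 group the count was 16, and without replicate 1, the library with 515 CPM of myeloid genes, it was 17. The part of these cells in the WT IL-2 values was not tested. H16R raised 48 and lowered 1, with a median of 0.89 (all genes, 32.7% up and 33.8% down). The 3x mutein raised 49 and lowered 2, with a median of 1.58, a fold of 2.99 (all genes, 34.7% up and 38.3% down). WT IL-2 put 25 genes wholly above PBS, H16R 48 and 3x 49, where 10.5%, 24.3% and 28.8% of all genes were.

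In this arm Ube2c had 19.5, 18.5, 17.0 and 20.3 CPM with PBS and 30.9, 21.6, 21.6 and 24.8 CPM with WT IL-2. It had 46.1, 42.0, 54.2 and 46.9 CPM with H16R and 84.3, 64.5, 88.2 and 93.2 CPM with 3x. The 4 groups stood apart in the order PBS, WT IL-2, H16R and 3x, with no library of Ube2c out of place. Its log2 fold change with 3x was 2.17 (SE 0.17, adjusted p = 1.4e-11), a fold of 4.5 and the largest of the 51. Birc5 rose by a log2 fold change of 1.43 (SE 0.17, adjusted p = 3.2e-08) with H16R, the largest for that molecule, and of 2.13 (SE 0.17, adjusted p = 9.16e-12) with 3x.

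Ccnb2, cyclin B2, had 16.2, 15.6, 13.5 and 14.9 CPM with PBS and 61.2, 46.4, 63.2 and 69.3 CPM with 3x (log2 fold change 2.03, SE 0.18, adjusted p = 1.05e-10). Kif11 rose from 33.0 to 35.4 CPM to 91.9 to 126 CPM (log2 fold change 1.70, SE 0.12, adjusted p = 2.4e-12), and Top2a from 94.5 to 109 CPM to 266 to 388 CPM (log2 fold change 1.71, SE 0.12, adjusted p = 5.59e-13). In all 3 genes the PBS and 3x libraries stood apart.

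**Figure D2:**
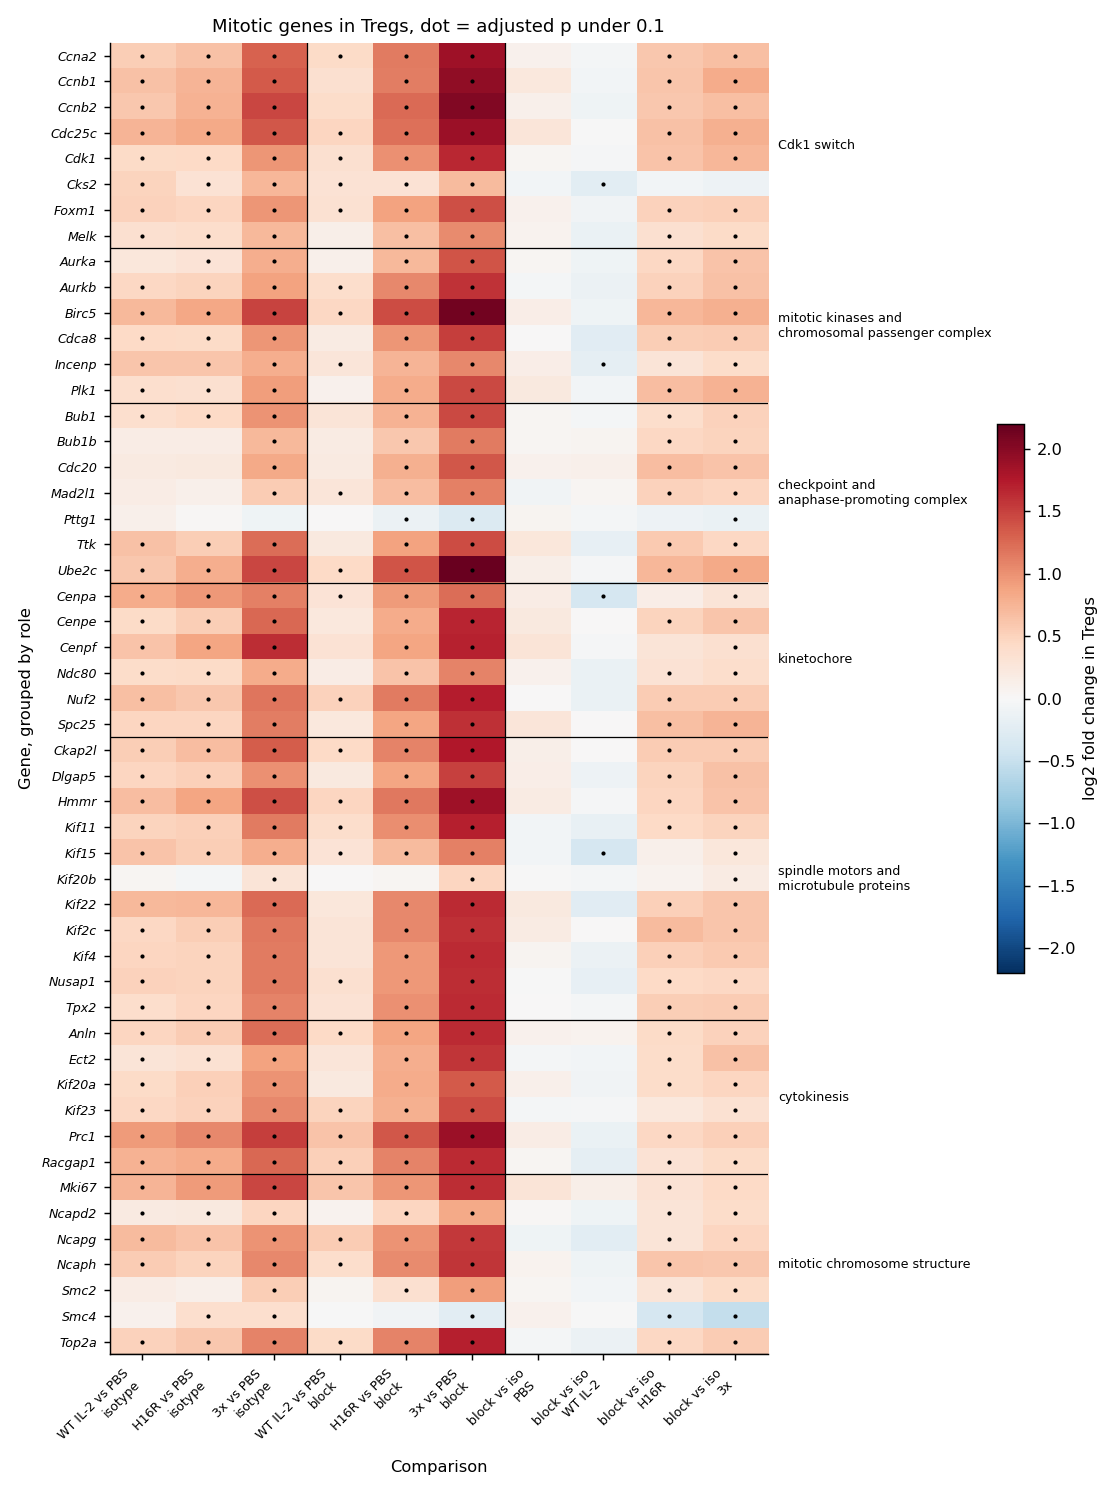
Log2 fold change of each of the 51 genes, grouped by role, in 10 comparisons of Tregs, with a dot where the adjusted p is under 0.1. The columns for 3x against PBS are the darkest, with 50 and 51 genes called. In the column for 3x with blocking, Smc4 and Pttg1 are lower and the other 49 genes are higher.

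**Figure D3:**
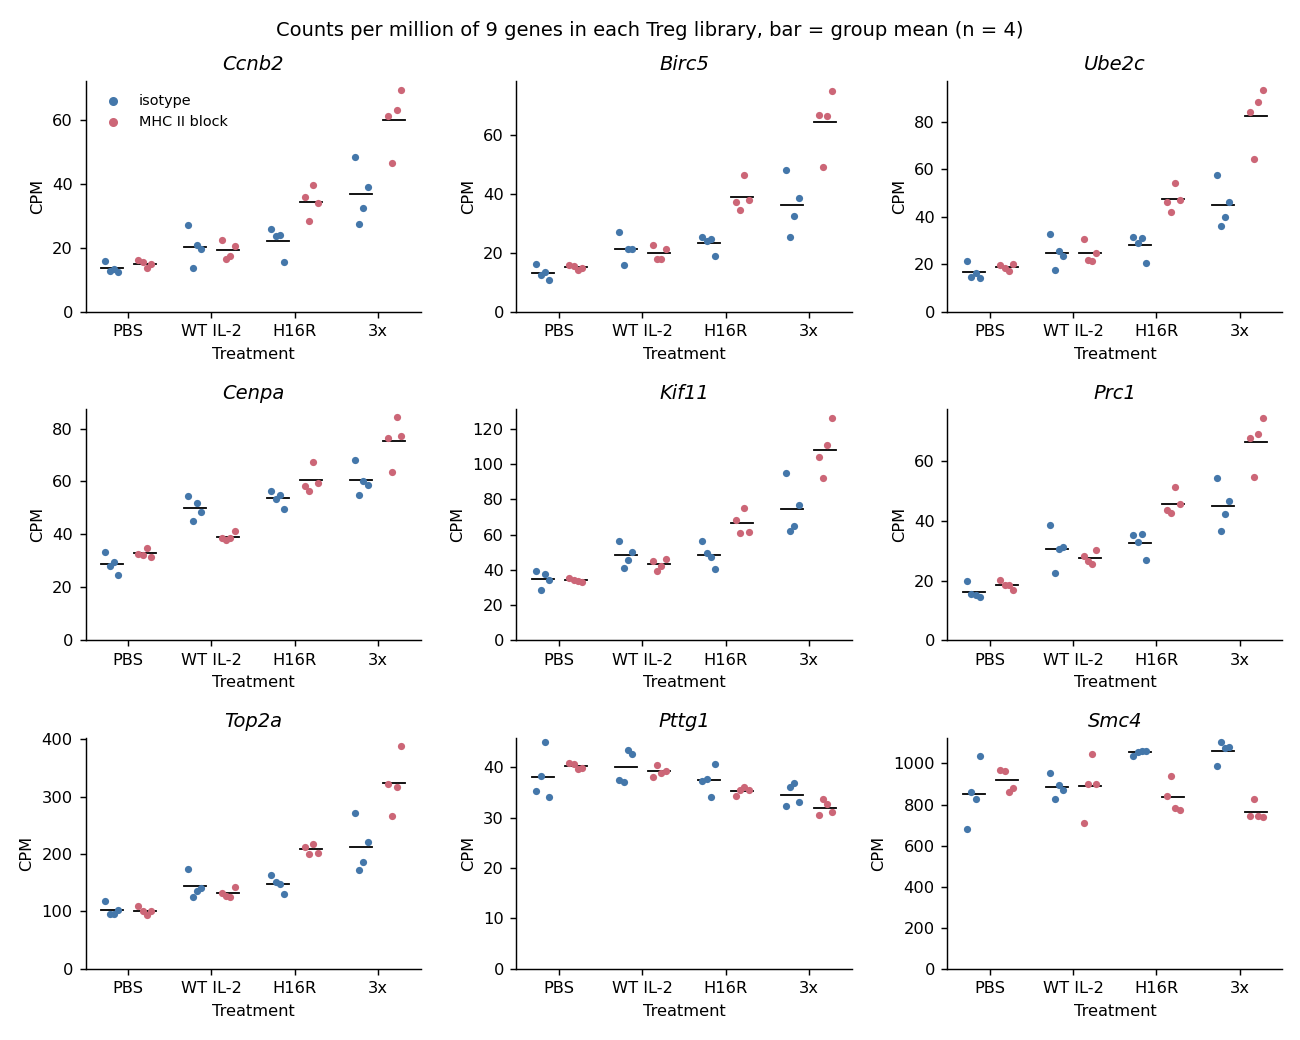
CPM of Ccnb2, Birc5, Ube2c, Cenpa, Kif11, Prc1, Top2a, Pttg1 and Smc4 in each of the 32 Treg libraries, by group. Ube2c climbs from 14.1 to 21.6 CPM in isotype PBS Tregs to 64.5 to 93.2 CPM with 3x and MHC II blocking, whereas Pttg1 stays between 30.4 and 45.1 CPM in all groups.

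The 3 IL-2 molecules were compared with each other at the single dose and time used, 3 pairs in each antibody arm. With isotype antibody, H16R and WT IL-2 differed in 1 of the 51 genes, Smc4, with a log2 difference of 0.28 (SE 0.09, adjusted p = 0.0376), and the median difference was 0.04 (all genes, 8.87% up and 9.76% down). This count was 0 without isotype H16R replicate 3 and 2 without isotype PBS replicate 4, isotype H16R replicate 2 or blocked 3x replicate 2, and 2 genes had an unadjusted p under 0.05. The interval of ±2 SE around the difference ran from −0.13 to 0.54 for Ube2c, from −0.17 to 0.47 for Birc5, from −0.13 to 0.38 for Prc1 and from −0.03 to 0.29 for Cenpa. Aurka, called against PBS with H16R and 3x and not with WT IL-2, was not called between H16R and WT IL-2. The compared groups fitted alone, limma on log2(FPKM + 1) and scaling by total counts alone each gave 2 called genes.

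The 3x mutein stood above both. Against WT IL-2 with isotype antibody it was higher in 48 genes and lower in 1, with a median of 0.57 (all genes, 16.9% up and 17.7% down). Cenpf differed most, by a log2 difference of 1.00 (SE 0.15, adjusted p = 2.29e-05), and Ube2c differed by 0.88 (SE 0.17, adjusted p = 0.000286). Against H16R the 3x mutein was higher in 45 genes and lower in none, with a median of 0.54 (all genes, 5.76% up and 5.77% down). Without replicate 1 of the isotype 3x group, the library with the highest mitotic level of that group, 22 genes were called. Of the genes named above, Prc1 differed by 0.45 (SE 0.13, adjusted p = 0.0264), while Cenpa, at 0.16 (SE 0.08, adjusted p = 0.244), did not pass.

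With MHC II blocking, H16R was above WT IL-2 in 47 genes and below it in 1, Pttg1, with a median of 0.60 (all genes, 25.5% up and 32.0% down). Birc5 showed the largest difference, a log2 value of 0.98 (SE 0.16, adjusted p = 2.53e-05), while Ube2c differed by 0.95 (SE 0.17, adjusted p = 5.6e-05) and Cenpa by 0.64 (SE 0.08, adjusted p = 8.22e-07). The 3x mutein was above WT IL-2 in 49 genes and below it in 2, with a median of 1.21 (all genes, 30.0% up and 38.7% down) and a log2 difference of 1.73 in Ube2c (SE 0.17, adjusted p = 2.31e-09). Without blocked WT IL-2 replicate 1 these comparisons called 48 genes for H16R and 51 for 3x. It was above H16R in 49 genes and below it in 1, with a median of 0.60 (all genes, 12.7% up and 12.5% down).

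To ask what MHC II blocking itself changed, the antibody arms were compared within each treatment. In Tregs of PBS-treated mice none of the 51 genes was called in either direction by edgeR in the model of all 8 Treg groups, by DESeq2 or by limma on log2(FPKM + 1), while edgeR on the compared groups alone called 1. In the model of all groups 1 gene had an unadjusted p under 0.05, and the median log2 difference was 0.09 (all genes, 6.00% up and 8.13% down). Without isotype PBS replicate 1 the count was 1. Ube2c had a log2 difference of 0.13 with an interval from −0.24 to 0.50. With WT IL-2, 4 genes were lower with blocking and none was higher, with a median of −0.08 (all genes, 18.2% up and 15.3% down). They were Cenpa (log2 difference −0.36, SE 0.08, adjusted p = 0.00146), the spindle motor Kif15 (−0.37, SE 0.10, adjusted p = 0.00749), the Cdk-binding protein Cks2 (−0.23, SE 0.08, adjusted p = 0.0267) and the passenger complex scaffold Incenp (−0.20, SE 0.09, adjusted p = 0.0926). The count was 10 without isotype WT IL-2 replicate 2, the lowest library of its group, and 2 without isotype WT IL-2 replicate 1, the highest. Without blocked WT IL-2 replicate 1, which held myeloid and B cell transcripts, it was 4.

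With H16R, 43 genes were higher with blocking and 1 was lower, with a median of 0.46, a fold of 1.38 (all genes, 15.4% up and 15.2% down). With 3x, 48 were higher and 2 lower, with a median of 0.53, a fold of 1.45 (all genes, 27.2% up and 26.9% down). Ube2c showed the largest rise in both, a log2 difference of 0.73 (SE 0.17, adjusted p = 0.00323) with H16R and of 0.83 (SE 0.16, adjusted p = 0.000164) with 3x. With H16R 42 of the 51 genes, Ube2c among them, had all 4 blocked libraries above all 4 isotype libraries, where 16.7% of all genes did, and with 3x 23 genes did, where 26.2% of all genes did. By role, 7 of 8 switch genes, 6 of 6 kinase and passenger complex genes, 6 of 7 checkpoint genes, 4 of 6 kinetochore genes, 9 of 11 spindle genes, 5 of 6 cytokinesis genes and 6 of 7 chromosome structure genes rose with H16R, and the remaining chromosome structure gene, Smc4, fell.

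Marker transcripts of other cells also differed between the antibody arms in the same libraries, some of them with overlap. Summed erythroid precursor markers were at 7.79 to 31.9 CPM in isotype Tregs and at 23.4 to 120 CPM in blocked Tregs, and granulocyte precursor markers at 0.0616 to 28.0 and 0.959 to 149 CPM. Plasma cell genes summed to 173 to 263 CPM with isotype antibody and 3x and to 718 to 1538 CPM with blocking and 3x, and CD8 T and NK cell genes to 24.2 to 53.9 CPM in isotype Tregs and to 87.7 to 250 CPM in blocked Tregs given IL-2. Myeloid cell genes were at 13.7 to 16.7 CPM with isotype antibody and H16R and at 33.1 to 58.4 CPM with blocking and H16R, and at 18.2 to 23.7 and 46.7 to 63.3 CPM with 3x, without overlap, while blocked PBS Tregs had 14.7 to 23.2 CPM. The part of these cells in the mitotic level was not tested.

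Whether blocking changed the response to a molecule was tested as the difference between arms in the change from PBS. For H16R the interaction was called for 8 genes as higher and 1 as lower, 9 in all, with a median of 0.37 (all genes, 10.6% up and 8.47% down). Top2a, at 0.51 (SE 0.16, adjusted p = 0.0396), was called and Ube2c, at 0.60 (SE 0.25, adjusted p = 0.111), was not. This count was 3 without isotype PBS replicate 1, 4 without isotype H16R replicate 4 or blocked H16R replicate 3, and 5 without blocked PBS replicate 2 or blocked H16R replicate 1 or 4. It was 14 with DESeq2 and 21 with edgeR on the compared groups alone, 15 without isotype 3x replicate 1, 16 without isotype WT IL-2 replicate 1 and 17 without isotype PBS replicate 4. For 3x the interaction was called for 29 genes as higher and 2 as lower, 31 in all, with a median of 0.44 (all genes, 20.3% up and 18.7% down), and among them were Ube2c at 0.70 (SE 0.24, adjusted p = 0.0306) and Birc5 at 0.63 (SE 0.24, adjusted p = 0.0426). It was called for 11 genes without isotype PBS replicate 1 or blocked 3x replicate 4, 12 without isotype 3x replicate 2 and 18 without isotype 3x replicate 3.

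For WT IL-2 the interaction was called for 2 genes, both lower, Cenpa at −0.52 (SE 0.12, adjusted p = 0.00334) and Incenp at −0.34 (SE 0.13, adjusted p = 0.0664), with a median of −0.17 (all genes, 11.7% up and 7.98% down). That count was 5 without isotype WT IL-2 replicate 2, 4 without isotype PBS replicate 1, and 1 without isotype PBS replicate 2, 3 or 4, isotype WT IL-2 replicate 1 or 3b, blocked PBS replicate 1 or 4, or blocked WT IL-2 replicate 2 or 3. Set against WT IL-2 in place of PBS, blocking raised the difference of H16R in 38 genes and lowered it in 1, with a median of 0.54 (all genes, 12.6% up and 10.9% down), and the count was 25 without isotype WT IL-2 replicate 1 or isotype H16R replicate 4. For 3x the same comparison gave 44 genes higher and 1 lower, with a median of 0.63 (all genes, 20.7% up and 23.0% down). Birc5 was highest in both, at 0.82 (SE 0.23, adjusted p = 0.0177) and 0.88 (SE 0.22, adjusted p = 0.00328).

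Some of the 51 genes did not follow the rest. Smc4 lies on chr3:69004738-69034623 (GRCm38, plus strand), encodes the ATPase core of condensin that compacts chromosomes, and hosts the microRNA genes Mir15b and Mir16-2 within its locus. It was the most abundant member per length, with a mean of 215 FPKM (fragments relative to transcript length and mapped reads) over the 32 Treg libraries against 42.3 FPKM for the next, Pttg1. It made up 16.2 to 48.3% of the summed CPM of the set. In isotype Tregs Smc4 had 683, 860, 828 and 1038 CPM with PBS, 952, 829, 894 and 872 CPM with WT IL-2, 1037, 1058, 1061 and 1062 CPM with H16R and 987, 1103, 1075 and 1078 CPM with 3x. With blocking it had 967, 961, 859 and 882 CPM with PBS, 710, 899, 1047 and 898 CPM with WT IL-2, 843, 941, 782 and 772 CPM with H16R and 746, 825, 743 and 738 CPM with 3x.

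Smc4 thus rose with 3x in the isotype arm, by a log2 fold change of 0.38 (SE 0.09, adjusted p = 0.000814), and fell in the blocked arm, at −0.23 (SE 0.09, adjusted p = 0.0259). The interaction was −0.61 (SE 0.13, adjusted p = 0.000884), opposite in sign to that of Ube2c, and Smc4 was lower with blocking both with H16R (−0.37, SE 0.09, adjusted p = 0.00555) and with 3x (−0.52, SE 0.09, adjusted p = 4.45e-05). Its partner in condensin, Smc2, was not called with WT IL-2 or H16R in the isotype arm but rose with 3x.

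Pttg1, securin, is degraded by the anaphase-promoting complex to release separase, and lies on chr11:43420250-43426251 (minus strand). Its level was 35.2, 38.2, 45.1 and 34.1 CPM in isotype PBS Tregs and 32.3, 36.1, 36.8 and 33.2 CPM with 3x, which overlapped (log2 fold change −0.09, SE 0.07, adjusted p = 0.278). With blocking it was 40.8, 40.6, 39.7 and 39.9 CPM with PBS and 30.4, 33.7, 32.7 and 31.1 CPM with 3x, without overlap (log2 fold change −0.30, SE 0.07, adjusted p = 0.000325). Pttg1 was thus the gene whose highest group was blocked PBS, while 48 of the 51 genes were highest with 3x and blocking and 2, Cks2 and Smc4, with 3x and isotype antibody.

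Cks2 had 21.5, 19.8, 19.3 and 17.2 CPM in isotype PBS Tregs and 35.0, 27.4, 30.9 and 31.6 CPM with 3x. With blocking it had 18.7, 19.6, 19.3 and 18.3 CPM with PBS and 29.8, 25.5, 31.2 and 33.1 CPM with 3x. It rose in both arms, at 0.73 (SE 0.08, adjusted p = 1.37e-08) and 0.69 (SE 0.08, adjusted p = 1.36e-08), and did not pass between the arms with 3x (−0.10, interval −0.26 to 0.05). Kif20b, a kinesin of late mitosis and cytokinesis, had 21.3, 22.0, 22.7 and 27.7 CPM in isotype PBS Tregs, which overlapped 22.8, 23.4, 20.4 and 20.3 CPM with H16R (log2 fold change −0.04, SE 0.09, adjusted p = 0.712). It rose with 3x in both arms, to 23.9 to 30.8 CPM and 30.9 to 34.7 CPM.

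Tregs were compared with Tcons of the same 16 mice, both antibody arms together and with the mouse as a block. In PBS mice 15 of the 51 genes were lower in Tregs and 3 were higher, with a median of −0.21 (all genes, 24.5% up and 25.9% down); without isotype PBS mouse 2 the total was 8, without blocked PBS mouse 1 or 2 it was 11, and with no block it was 6. The 3 higher genes were Smc4 (0.78, SE 0.07, adjusted p = 1.82e-07), the kinase Melk (0.42) and Pttg1 (0.11, SE 0.05, adjusted p = 0.0887). With WT IL-2, 44 genes were lower and 2 higher in Tregs, with a median of −0.47 (all genes, 32.0% up and 31.5% down). With H16R 18 were lower and 5 higher, with a median of −0.19 (all genes, 36.4% up and 34.1% down), a total of 23 that fell to 14 without isotype or blocked H16R mouse 2 and to 11 with no block. The shares of lower genes with PBS and with H16R were near those of all genes. With 3x, 50 were higher in Tregs and none lower, with a median of 0.91, a fold of 1.88 (all genes, 36.7% up and 34.4% down). With 3x the geometric mean CPM of the set averaged 33.9 in isotype Tregs and 15.7 in isotype Tcons, where isotype PBS Tcons averaged 20.9. With 3x and blocking it averaged 49.3 in Tregs and 33.6 in Tcons. Each Tcon value rests on 2 libraries.

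The anillin gene Anln, which scaffolds the contractile ring, was furthest below Tcons with PBS, WT IL-2 and H16R, at −0.96 (SE 0.15, adjusted p = 6.99e-05), −1.24 (SE 0.14, adjusted p = 2.45e-06) and −0.97 (SE 0.14, adjusted p = 1.82e-05), and was the gene not called with 3x. Cenpf was furthest above with 3x, at 1.67 (SE 0.11, adjusted p = 2.72e-09). Mki67, again chosen after its values were seen, had 1.39 (SE 0.11, adjusted p = 2.29e-08) with 3x and −0.38 (SE 0.11, adjusted p = 0.00634) with WT IL-2.

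The change from PBS was also compared between Tregs and Tcons. For 3x it was larger in Tregs for 49 genes and smaller for none, with a median of 1.11 (all genes, 24.3% up and 22.2% down). Ube2c had a difference of 1.48 (SE 0.21, adjusted p = 0.000128), and Pttg1 and Smc4 were the genes not called. For H16R it was larger in Tregs for 6 genes, Cenpf, Cenpa, Mki67, Racgap1, Incenp and Smc4, and smaller for none (all genes, 21.8% up and 18.8% down). For WT IL-2 it was smaller in Tregs for 2 genes, Plk1 (−0.67, SE 0.22, adjusted p = 0.0774) and Aurka (−0.59, SE 0.20, adjusted p = 0.0842), and larger for none, 5 genes having an unadjusted p under 0.05 (all genes, 7.26% up and 4.94% down). That count was 14 without isotype WT IL-2 mouse 2, whose Tcons were the lower of the pair, 4 without blocked 3x mouse 2, 0 without any one of the PBS mice, isotype WT IL-2 mouse 1 or either blocked WT IL-2 mouse, and 1 without any one of the H16R mice. It was 4 with DESeq2, 1 without the filter on CPM and 0 with no mouse block, and the H16R count of 6 was 3 with scaling by total counts alone.

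In Tcons the molecules were set against PBS with the antibody as a term. WT IL-2 raised 41 genes and lowered none, with a median of 0.68, a fold of 1.60 (all genes, 14.8% up and 12.4% down). H16R raised 42 and lowered 1, with a median of 0.67 (all genes, 16.2% up and 14.9% down). With 3x no gene rose and 1, Pttg1, fell (−0.20, SE 0.06, adjusted p = 0.0785), with a median of 0.14 (all genes, 4.71% up and 5.17% down); DESeq2 also called 1, edgeR without the filter on CPM called 0, and 1 gene had an unadjusted p under 0.05. The interval for Ube2c with 3x was wide, from −0.28 to 0.83. MHC II blocking raised 39 genes and lowered none, with a median of 0.45 (all genes, 13.8% up and 15.1% down). Both the molecule and the antibody terms average over groups that differed. The mean of the geometric mean CPM of the 51 genes was 20.9 with isotype antibody and 22.5 with blocking for PBS, 29.1 and 37.7 for WT IL-2, 31.7 and 36.3 for H16R, and 15.7 and 33.6 for 3x, so that the step between the arms was widest with 3x. Whether it differed between the molecules in Tcons was not tested.

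Tcons had 2 libraries a group, and their counts turned on single libraries. Ube2c in isotype Tcons was at 22.7 and 18.9 CPM with PBS, 49.2 and 19.8 CPM with WT IL-2, 39.0 and 38.2 CPM with H16R and 18.6 and 12.1 CPM with 3x. In blocked Tcons Ube2c was at 23.6 and 24.3 CPM with PBS, 56.0 and 45.0 CPM with WT IL-2, 52.7 and 49.8 CPM with H16R and 44.5 and 45.0 CPM with 3x. The isotype WT IL-2 pair thus spanned the PBS level and the highest isotype level, and the 3x pairs fell on different sides of PBS in the 2 arms. The WT IL-2 count of 41 was 7 without isotype WT IL-2 Tcon replicate 1, 9 without either blocked PBS Tcon and 17 without blocked WT IL-2 Tcon replicate 1. The H16R count of 43 was 20 and 27 without isotype H16R Tcon replicates 1 and 2, and 22 and 23 without blocked PBS Tcon replicates 1 and 2. The blocking count of 39 was 16 and 24 without isotype 3x Tcon replicates 1 and 2 and 21 without either blocked 3x Tcon. The 3x count of 1 was 0 without isotype H16R replicate 2, isotype 3x replicate 1, blocked WT IL-2 replicate 2 or any one of the blocked PBS or blocked 3x Tcons.

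The Tcon fraction also held transcripts of blood cell precursors, cells of the spleen that divide. Summed erythroid precursor markers in isotype Tcons were at 182 and 206 CPM with PBS, 966 and 177 CPM with WT IL-2, 564 and 486 CPM with H16R and 197 and 141 CPM with 3x. In blocked Tcons they were at 212 and 280, 642 and 359, 321 and 426, and 441 and 424 CPM in the same order. Granulocyte precursor markers were at 56.6 to 328 CPM in isotype Tcons and at 197 to 1162 CPM in blocked Tcons. The isotype WT IL-2 Tcon library with 966 CPM of erythroid markers was the one with 49.2 CPM of Ube2c, and its partner with 177 CPM had 19.8 CPM. In Tregs erythroid markers reached 120 CPM at most, below the lowest Tcon library, at 141 CPM. The part of these cells in the mitotic level of Tcons was not tested.

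**Figure D4:**
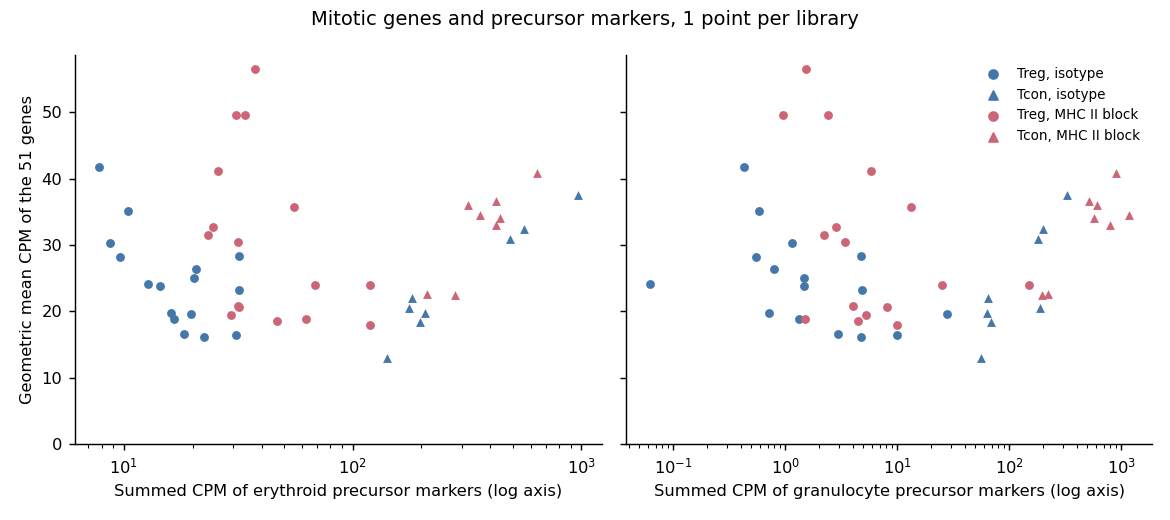
Geometric mean CPM of the 51 genes against the summed CPM of erythroid precursor markers and of granulocyte precursor markers (log axis) in each library, circles for Tregs and triangles for Tcons. Tcon libraries lie at 141 to 966 CPM of erythroid markers and Treg libraries at 7.79 to 120 CPM, and the highest mitotic levels, 41.2 to 56.6 CPM, are in Tregs.

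A list of 72 other mitotic genes was set beside the 51. With isotype antibody 34 of them rose and 3 fell with WT IL-2 (median 0.24; all genes, 26.0% up and 26.2% down), 36 rose and 10 fell with H16R (median 0.22; all genes, 31.4% and 32.8%), and 56 rose and 2 fell with 3x (median 0.67; all genes, 31.3% and 32.3%). With blocking, 18 rose and 5 fell with WT IL-2 (median 0.21; all genes, 21.9% and 13.7%), 54 rose and 4 fell with H16R (median 0.68; all genes, 32.7% and 33.8%), and 61 rose and 2 fell with 3x (median 1.25; all genes, 34.7% and 38.3%). Cdc25b, a phosphatase that activates Cdk1, led in the isotype arm, with log2 fold changes of 1.44, 1.88 and 2.00, and Cdkn3, a phosphatase of Cdk proteins, led with blocking, with 0.79, 1.69 and 2.31. Cdca7, which belongs to chromatin remodelling rather than to the spindle, was lowest in each of the 6 comparisons, from −0.70 to −0.31.

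A list of 48 S phase genes, which replicate DNA or prepare for it, was set beside them as well, with the shares of all genes as just given. With isotype antibody 4 rose and 12 fell with WT IL-2, 2 rose and 32 fell with H16R, and 8 rose and 20 fell with 3x, with medians of −0.10, −0.28 and −0.09, while the medians of the 51 mitotic genes were 0.48, 0.53 and 1.06. With blocking, 3 rose and 6 fell, 14 rose and 6 fell, and 34 rose and 3 fell, with medians of −0.05, 0.06 and 0.32. The clamp loader Rfc4, at −0.71 with H16R, and the polymerase subunit Pold2, at −0.43 with 3x, were the lowest of the list in the isotype arm, whereas the transcription factor E2f2 was highest, at 0.73, 0.99 and 1.15. Rrm2, which makes deoxynucleotides, was highest with 3x and blocking, at 1.63. Between the arms, blocking raised 35 S phase genes and lowered 1 with H16R (median 0.30, where 15.4% of all genes were raised and 15.2% lowered), and raised 40 and lowered 2 with 3x (median 0.35, where 27.2% were raised and 26.9% lowered).

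**Figure D5:**
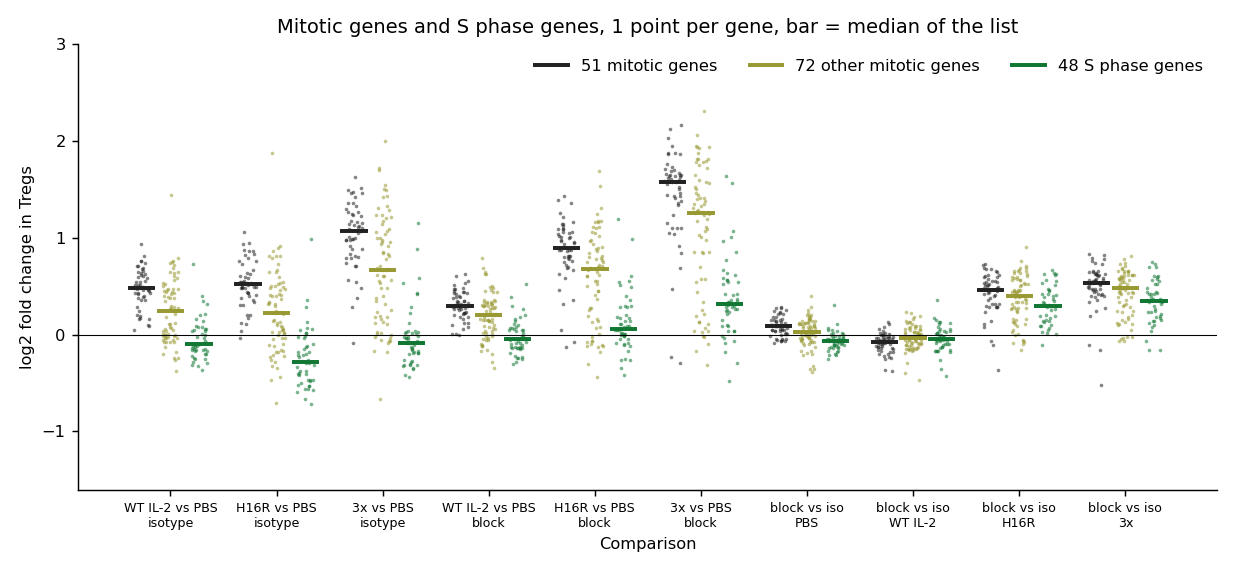
Log2 fold change of each gene in 10 comparisons of Tregs, for the 51 mitotic genes, 72 other mitotic genes and 48 S phase genes, with the median as a bar. With isotype antibody the mitotic medians are 0.48, 0.53 and 1.06 for WT IL-2, H16R and 3x and the S phase medians are −0.10, −0.28 and −0.09.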

How the data were processed

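RNA of purified Tregs (32 libraries) and Tcons (16 libraries) was sequenced as stranded mRNA libraries. The authors aligned the reads to the mouse B38 genome, GRCm38, with Omicsoft's OSA aligner and deposited expected counts from the Omicsoft version of RSEM, not normalized, with 72.8% of the nonzero values whole. The FPKM values the authors deposited come from the same estimates, divided by transcript length and by mapped reads, and were used to rank levels between genes and as an alternative input. The authors also deposited tables of their own DESeq2 (version 1.30.1, per the submitters' processing notes) comparisons with fold changes and p-values, which were not used. Columns were matched to samples by their labels, and 0 columns belonged to other samples.

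Here, expected counts were rounded, restricted to genes with CPM above 0.5 in at least 4 libraries and protein-coding in GENCODE vM21, scaled with TMM and fitted with edgeR 4.0.16 (quasi-likelihood) in R 4.3.3. One model of the 8 Treg groups shared the estimate of spread, Treg against Tcon fits took the mouse as a blocking term, and Tcons were fitted with drug and antibody as terms. Benjamini-Hochberg adjustment ran over all genes, with 0.1 as the threshold, and p-values measure the spread between libraries, 2 of which carry the same mouse label. SE was the log2 fold change divided by the root of the F statistic, and intervals are ±2 SE. CPM is the expected count divided by the library total. The scripts were tested on simulated data. At the lowest depth, 18.3 M expected counts, low genes are measured less precisely than at 51.2 M.

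Alternatives were DESeq2 1.42.0, limma 3.58.1 on log2(FPKM + 1), other scalings, no filter, all biotypes, empty cells read as 0, thinning to the smallest library, only the groups compared, the replicate number as a block, and leaving out each library. Most genes named singly are the 2 members of each role with the highest mean FPKM, the extremes of each comparison, called members that moved against the majority, all called members where there were 5 or fewer, and the extremes of the other lists. Some were named outside this rule, among them Mki67, Smc2, Bub1b and Cdc20. So were several genes of the lists of cell cycle regulators and G1 genes. Not every gene that meets the rule is named. The members and lists were chosen with earlier results of these data known.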

Additional observations from a re-analysis of the deposited data

Results flagged for a closer look

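In 4 of 136 groups of 4 Treg libraries, 1 library lay far from the other 3 by Dixon's criterion, which chance meets in about 1 in 20 groups. The geometric mean CPM of the 51 genes in isotype PBS Tregs was 19.7 in replicate 1 and 16.1, 16.7 and 16.4 in the others, and Prc1 in the same group was at 19.8 CPM in replicate 1 and at 15.4, 15.3 and 14.5 CPM in the others. That library also held 735 CPM of B cell genes, against 143 to 182 CPM in the other 3, and the part of these cells was not tested. Ndc80, a kinetochore gene, was at 13.3 CPM in blocked WT IL-2 Treg replicate 3, below the other 3 libraries. Smc4 in Tregs given 3x with blocking was at 825 CPM in replicate 2 and at 746, 743 and 738 CPM in the others.

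By the interaction test, the effect against PBS differed between the antibody arms for 2 genes with WT IL-2 (all genes, 11.7% up and 7.98% down). The count was 9 with H16R (10.6% and 8.47%) and 31 with 3x (20.3% and 18.7%), and it turned on single libraries, as given above. Against WT IL-2 it was 39 with H16R (12.6% and 10.9%) and 45 with 3x (20.7% and 23.0%). Between Tregs and Tcons the effects of WT IL-2 differed for 2 genes (all genes, 7.26% up and 4.94% down). Those of H16R differed for 6 (21.8% and 18.8%) and those of 3x for 49 (24.3% and 22.2%).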

How the results depend on the processing

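Of 265 recomputed counts of called genes outside the leave-one-out runs, 251 were within 1.5 times the reported count and 14 were not, and no gene named above changed direction while called. Fitting the compared groups alone gave 1 for blocking with PBS and 2 for H16R against WT IL-2 with isotype antibody, as did total counts alone and limma for the latter. The H16R interaction against PBS was 14 with DESeq2, 21 with the compared groups alone and 21 with the replicate block. Without the mouse as a block, Tregs against Tcons gave 6 with PBS and 11 with H16R, and the WT IL-2 difference gave 0, with 4 in DESeq2 and 1 without the filter. The H16R difference was 3 with total counts alone, and 3x in Tcons was 0 without the filter. The cause was not tested.

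The summed CPM of the 51 genes was 1.24, 1.34 and 1.68 times isotype PBS with WT IL-2, H16R and 3x, and with blocking 1.08 for PBS and 1.21, 1.51 and 2.04 for the molecules. Without Smc4, a choice made after the data were seen, they were 1.39 and 2.00 for WT IL-2 and 3x, and with blocking 1.33, 1.90 and 2.90. As a geometric mean, which was not planned either, they were 1.97 for 3x and, with blocking, 1.30, 1.90 and 2.86.

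Leaving out 1 library at a time, the counts against PBS ran from 33 to 46, 42 to 46 and 50 to 51 with isotype antibody for WT IL-2, H16R and 3x, and with blocking from 16 to 29, 48 to 49 and 51 to 51. Blocking against isotype gave 0 to 1, 2 to 10, 33 to 44 and 46 to 50. H16R against WT IL-2, 3x against WT IL-2 and 3x against H16R gave 0 to 2, 42 to 51 and 22 to 47 with isotype antibody, and 45 to 48, 50 to 51 and 49 to 50 with blocking. The interactions gave 1 to 5, 3 to 17 and 11 to 45 against PBS, and 25 to 44 and 37 to 49 against WT IL-2. Tregs against Tcons gave 8 to 24, 39 to 49, 14 to 29 and 49 to 50, the differences 0 to 14, 4 to 6 and 48 to 50, and Tcons 7 to 49, 20 to 47 and 0 to 1 for the molecules and 16 to 48 for blocking. The summed CPM folds ran from 1.19 to 1.30, 1.32 to 1.38 and 1.59 to 1.73, and with blocking from 1.06 to 1.11, 1.18 to 1.24, 1.48 to 1.55 and 1.96 to 2.12.

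Replicate numbers are not stated to link mice of different groups. Over 112 same-numbered pairs the deviations correlated from −0.48 to 0.66 with a median of 0.025, and 27 were over 0.1. Over 336 different-numbered pairs they correlated from −0.58 to 0.44 with a median of −0.0092, and 70 were over 0.1. Whether same-numbered libraries share a step of processing cannot be told from these values. As a replicate block the number gave 31 in place of 25 called genes for WT IL-2 with blocking. It gave 21 in place of 9 for the H16R interaction against PBS and 37 in place of 31 for that of 3x. Of all the counts, only that of the H16R interaction moved beyond 1.5 times. With 2 Tcon libraries a group, and 18.3 to 34.6 M counts in isotype PBS Tregs, some small differences may have been missed, and no limit of detection was set.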

Other observations

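A list of 16 genes held regulators that restrain the cell cycle together with the MuvB subunits Lin9, Lin37, Lin52 and Lin54, which belong to repressing and to activating complexes. With isotype antibody 6 of the 16 rose and 4 fell with WT IL-2 (all genes, 26.0% up and 26.2% down), 6 rose and 5 fell with H16R (31.4% and 32.8%), and 6 rose and 3 fell with 3x (31.3% and 32.3%). With blocking 4 rose and 2 fell (21.9% and 13.7%), 7 rose and 4 fell (32.7% and 33.8%), and 8 rose and 5 fell (34.7% and 38.3%). Of the 4 that fell with WT IL-2 and isotype antibody, 3 were Lin9, Lin52 and Lin54, while Lin37 rose. Cdkn1a, the Cdk inhibitor p21, had log2 fold changes of 0.51, 1.21 and 1.60 with blocking for WT IL-2, H16R and 3x, whereas with isotype antibody it rose by 0.41 with WT IL-2 and had 0.19 and 0.20, not called, with H16R and 3x. Between the arms Cdkn1a was lower with blocking for PBS and WT IL-2, at −0.44 and −0.33, and higher for H16R and 3x, at 0.58 and 0.95. Of the kinases that inhibit Cdk1, Wee1 rose by 0.68 with 3x and blocking, whereas Pkmyt1 was lower in all 6 comparisons with PBS, at −0.22, −0.46 and −0.31 with isotype antibody and −0.30, −0.33 and −0.23 with blocking. Btg1, an antiproliferative gene, and Cdkn1b, the Cdk inhibitor p27, were lower with 3x and blocking, at −0.49 and −0.38.

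Among 6 G1 genes, Ccnd1, cyclin D1, went against the mitotic genes in the isotype arm. Its log2 fold changes were −1.18 (SE 0.26), −1.80 (SE 0.27) and −1.65 (SE 0.26) for WT IL-2, H16R and 3x. The other G1 genes had an SE of at most 0.12. Plasma cell genes fell in the same isotype groups, as given above, and their part in the Ccnd1 values was not tested. With blocking Ccnd1 rose by 0.60 with WT IL-2 and had −0.14 and −0.23, not called, with H16R and 3x. Between the arms blocking raised it by 1.56, 1.44 and 1.20 with the same molecules. Cdk4, a kinase partner of the D-type cyclins, was also lower with each of the 3 molecules, at −0.21, −0.30 and −0.24 with isotype antibody and at −0.12, −0.12 and −0.15 with blocking. Ccnd3, another D-type cyclin, had −0.19 with WT IL-2, −0.01 with H16R, not called, and 0.25 with 3x in the isotype arm, and Ccnd2 had 0.05 and 0.05, not called, and 0.36. With 3x and blocking Ccnd2 and Ccnd3 had 0.72 and 0.67. Cdk2 had 0.17, 0.29 and 0.38 for the 3 molecules in the isotype arm. With blocking it had 0.11, not called, 0.32 and 0.44. Cdk6 had 0.33, then 0.16, not called, and 0.54 in the isotype arm. With blocking it had 0.14 and 0.07, not called, and 0.65.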
